A study of Danio rerio with 20 samples.

Results

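The onset of zygotic transcription was followed in 8 libraries of zebrafish embryos, 4 at 2 hours post fertilization (hpf) and 4 at 4 hpf, out of 20 libraries in the series. They were chosen by their labels, as all the 2 and 4 hpf libraries of the set named rs1a. Embryos of the AB strain came from natural mating, received at the 1-cell stage a control morpholino (ConMO), translation-blocking morpholinos against TUT4 (TUT4MO) or TUT7 (TUT7MO), or both together (TUT47MO), and were kept at 28.5 °C. A morpholino is an antisense oligomer, and TUT4 and TUT7 are terminal uridylyltransferases, enzymes that add uridines to RNA 3′ ends. Each hour had 1 library per morpholino, so each 4 hpf library was paired with the 2 hpf library of the same morpholino, and the 4 pairs are 4 different injections rather than repeats of a single condition. No uninjected embryos were analysed here, and how many embryos or clutches went into a library is not in the labels. A p-value measures a change against its spread between the 4 pairs. That spread may be technical and also holds any difference between the injections.

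A zebrafish egg carries a store of maternal mRNA that runs the early cleavages, while the zygotic genome stays almost silent. At the mid-blastula transition the cell cycle lengthens and transcription starts broadly. The maternal factors Nanog, Pou5f3 and Sox19b open the first genes, and maternal mRNAs are then removed, in part through zygotic miR-430. The embryo at 2 hpf is in cleavage, and at 4 hpf it is a blastula past the transition.

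Total RNA depleted of ribosomal RNA was sequenced, to between 14824281 and 28410129 estimated reads per library. Levels are given as CPM, each library's reads scaled to a common total by the TMM method, and a change is the difference in log2(CPM + 1), which understates the change of low genes. Of 32105 named entries, 15764 had enough reads to be tested. The 2 entries of clone AC024175 with reads, a sequence deposited as the zebrafish mitochondrial genome, took 9.88 to 11.7% of reads at 2 hpf and 13.5 to 14.4% in ConMO and TUT4MO at 4 hpf, but 44.7% in TUT7MO and 44.6% in TUT47MO at 4 hpf. These 2 libraries are also the ones that received the TUT7 morpholino, so at 4 hpf the larger share and that injection cannot be told apart. At 6 hpf in set rs1a the share was 48% in ConMO, 48.4% in TUT4MO, 51.3% in TUT7MO and 51.6% in TUT47MO. In set rs1b at 6 hpf it was 2.88% in ConMO and 1.75% in TUT47MO. In set rs2 at 5 hpf it was 7.22% in ConMO and 9.54% in TUT47MO. What set the share was not tested. Over the other genes the TUT7MO and TUT47MO libraries at 4 hpf also stood together. At 4 hpf the chi-square per degree of freedom was 3.88 between ConMO and TUT4MO, 3.44 between TUT7MO and TUT47MO, and 11.8 to 14.7 in the other 4 combinations. At 2 hpf it ran from 4.32 to 10.9, so no pair of libraries agreed within sampling noise. Whether what raised that share touched other genes was not tested, and changes with the ConMO and TUT4MO pairs alone are given below beside some of the genes that move with it and where they end a call.

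Between 2 and 4 hpf, 2874 genes rose and 3344 fell (limma, adjusted p under 0.05), which is 18.2% and 21.2% of the genes tested. Most of these changes were small. Among the risers 518 changed by at least 1 on the log2 scale and 270 by at least 2. Among the fallers 116 fell by at least 1 and 1 fell by at least 2. All 4 libraries at 4 hpf lay above all 4 at 2 hpf in 2759 genes (17.5%) and below them in 3237 (20.5%). The ConMO and TUT4MO pairs alone gave 2430 risers and 2514 fallers. With the 4 libraries at 6 hpf also sharing the estimate of the spread, 474 rose and 332 fell. That fit called 32 early zygotic regulators higher, 1 histone entry higher and 2 oocyte and egg genes lower, lists that are described below.

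The split between risers and fallers depended on how libraries were put on a common scale. With the scaling that the authors deposited, 1444 genes rose and 5783 fell, so that 20% of calls were rises against 46.2% with TMM, and the median change of all genes moved to −0.138 from −0.012. With library totals alone, where the larger AC024175 share lowers every other gene, 647 rose and 5370 fell around a median of −0.359. A change nearer to 0 than these shifts has a direction only relative to the other genes. Bulk libraries measure shares of RNA, so fewer cells of a type and less RNA per cell cannot be told apart, and the values give no amount per embryo.

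The starting level of a gene went with the size of its change. Of 1706 tested genes under 1 CPM at 2 hpf, 518 rose (30.4%), with a median log2 change of 1.65 and a largest of 7.54, and 26 fell. Of 9378 genes at 10 CPM or more at 2 hpf, 1899 rose (20.2%) with a median of 0.27, and 34 of them by at least 1. A gene with too few reads at 2 hpf was tested only if it had enough at 4 hpf, so the share for the low genes also describes the filter. In 93 of the 2874 risers, no read was assigned in any library at 2 hpf.

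The 12 largest rises among genes with a gene name, rather than a clone or cDNA name, and a mean of at least 5 CPM over both hours took genes with few reads at 2 hpf to between 36.4 and 328 CPM. akap12b (ENSDARG00000055678), a scaffold that anchors protein kinase A, stood at 1.33, 1.04, 0.970 and 1.015 CPM in ConMO, TUT4MO, TUT7MO and TUT47MO at 2 hpf. At 4 hpf it stood at 229, 276, 231 and 328 CPM in the same order, which is kept below. Its log2 change was 6.99 ± 0.11 (SE, n = 4 pairs, limma adjusted p = 3.91e-10), and every 4 hpf library lay above every 2 hpf library. This SE, like those below, is limma's moderated one, which borrows spread across genes and is not that of the pair changes alone.

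klf17 (ENSDARG00000038792), a Krüppel-like zinc finger factor of the outer layer and later of the hatching gland, was at 0.532, 0.742, 0.868 and 0.976 CPM in the 2 hpf libraries. Later it reached 128, 129.6, 121 and 129.6 CPM, so the 4 libraries at 4 hpf lay close together (log2 change 6.17 ± 0.09, limma adjusted p = 3.88e-10). The Iroquois homeobox gene irx7 rose from 0.0530, 0.0371, 0.306 and 0.430 CPM to 97.9, 100, 80.8 and 101 CPM (6.32 ± 0.12). Its 2 hpf values were higher in TUT7MO and TUT47MO than in the other libraries, but all were under 0.5 CPM.

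The zinc finger gene znf1109 went from 0.241, 0.427, 0.318 and 0.403 CPM to 112, 113, 77.2 and 81.0 CPM (6.15 ± 0.12). The Hairy-related repressor gene her5 went from 0.160, 0.186, 0.102 and 0.195 CPM to 93.2, 84.6, 50.5 and 66.6 CPM (5.97 ± 0.13). In both genes the TUT7MO and TUT47MO libraries, those with the TUT7 morpholino and the larger AC024175 share, were the lower ones at 4 hpf. All 4 libraries at 4 hpf were still far above those at 2 hpf, and with the ConMO and TUT4MO pairs alone the changes were 6.54 for znf1109 and 6.41 for her5. fam212aa rose by 6.77 ± 0.11, the grainyhead-like factor gene grhl3 by 5.74 ± 0.09, the apolipoprotein E gene apoeb by 5.74 ± 0.11, the ventral repressor gene vox by 5.64 ± 0.12 and nnr by 5.38 ± 0.12.

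mxtx2, a homeobox gene needed in the yolk syncytial layer, had 2 reads in all at 2 hpf and stood at 44.6, 51.9, 64.3 and 93.6 CPM in the 4 hpf libraries. The highest level was in TUT47MO and the lowest in ConMO. Its level was 2830 times higher at 4 hpf, with a 95% interval from counting error alone of 784 to 23400. aplnrb, a receptor for the peptide apela, had no read in any 2 hpf library and stood at 38.2, 40.2, 44.7 and 77.1 CPM in the 4 hpf libraries. With a floor of 3 reads over the 2 hpf group, it was at least 1470-fold higher.

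**Figure D1:**
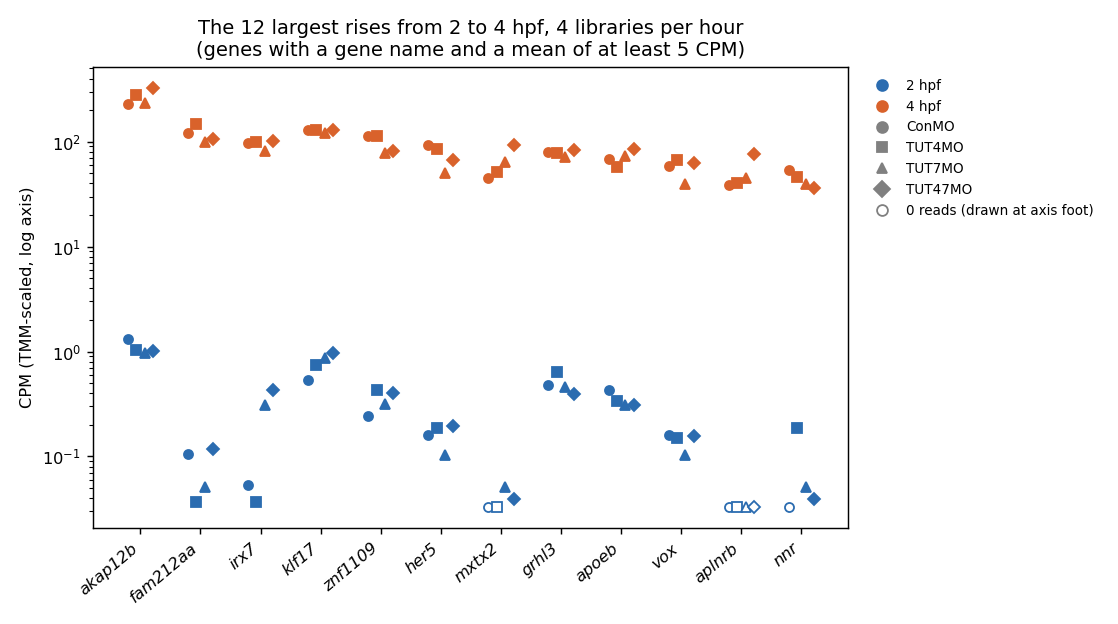
CPM (log axis) of the 12 genes with the largest rises among those with a gene name and a mean of at least 5 CPM, in each of the 4 libraries at 2 hpf (blue) and at 4 hpf (orange), with 1 symbol per morpholino; open symbols are libraries with 0 reads. In each of the 12 genes all 4 hpf libraries lie above all 2 hpf libraries, and akap12b reaches 328 CPM in TUT47MO.

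Genes listed as switching on at the mid-blastula transition rose wherever they could be tested. This list, like the others below, was chosen with earlier results of these data known. It holds klf17, grhl3, fam212aa, irx7 and apoeb, which are among the largest risers above, so its count is no independent check. Of 40 entries on this list, 36 had enough reads to be tested and 36 of 36 rose (100%, against 18.2% of all genes tested). Of all tested genes under 1 CPM at 2 hpf, 30.4% rose. The median log2 change of the list was 3.57 against −0.012 over all genes. Their summed level went from 25.5 to 29.2 CPM at 2 hpf to 1102 to 1389 CPM at 4 hpf. The smallest rise was that of bambia, a BMP pseudoreceptor that already stood at 11.4 CPM at 2 hpf (0.93). A member low at 2 hpf was tested only if it had enough reads at 4 hpf, so the 36 of 36 also describes the filter, which works against genes that stay low. nog1 reached 1.98 CPM at 4 hpf, and hapln1b, polr3glb and a second pcdh8 entry stayed under 0.3 CPM, all untested.

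The genes nanog, pou5f3 and sox19b, whose factors open the genome, were already abundant, and most genes on their list rose a little. Of 21 listed maternal activators 17 rose (81%, against 18.2% of all genes tested) and 2 fell, with a median of 0.39. The 17 include vgll4l, which was under 1 CPM at 2 hpf and so was not abundant before the onset. These counts were 11 and 2 with the deposited scaling, and 2 and 3 with library totals alone. nanog was at 442, 383, 398 and 375 CPM in the 2 hpf libraries and 613, 589, 612 and 646 CPM in the 4 hpf libraries. The groups did not overlap (0.62 ± 0.06, limma adjusted p = 4.04e-05). pou5f3 went from 293 ± 13.4 to 374 ± 8.16 CPM (SD, n = 4; 0.35) and sox19b from 449.9 ± 20 to 509 ± 9.70 CPM (0.18), a call lost with the ConMO and TUT4MO pairs alone (0.16). The Nodal pathway factor gene foxh1 rose by 0.56, eomesa by 0.57 and the acetyltransferase genes ep300a and ep300b by 0.41 and 0.51.

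The 2 largest rises of the list belonged to genes that were lower at 2 hpf. mych, a Myc family gene, stood at 10.6, 11, 11.4 and 11.3 CPM in the 2 hpf libraries and 83.8, 78.8, 75.5 and 71.7 CPM in the 4 hpf libraries (2.70 ± 0.07). vgll4l, a vestigial-like cofactor gene, stood at 0.638, 0.482, 0.562 and 0.625 CPM and then at 42.3, 15.6, 31.6 and 13.9 CPM (3.95 ± 0.23). Here ConMO and TUT7MO were the high libraries, and TUT4MO and TUT47MO, which received the TUT4 morpholino, the low ones. The libraries with the larger AC024175 share, TUT7MO and TUT47MO, fell on both sides. Each level is that of a single library, and what set the split was not tested. tbpl2, the TATA-binding protein paralog of the oocyte, fell from 29.2 ± 2.17 to 17.1 ± 2.72 CPM (−0.75), while tbp rose by 0.19, a call lost with the ConMO and TUT4MO pairs alone.

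Among Nodal and organizer genes 12 of 15 tested rose (80%, against 18.2% of all genes tested) and none fell, with a median of 1.93. Here too a member low at 2 hpf was tested only if it had enough reads at 4 hpf, so the count also describes the filter. The same limit holds for the BMP, FGF, Wnt, mesoderm, endoderm, ectoderm, yolk syncytial layer and p53 lists below. Of all tested genes under 1 CPM at 2 hpf, 30.4% rose. The Nodal ligand gene ndr1, part of it maternal, stood at 1.70, 2.67, 3.52 and 2.85 CPM in the 2 hpf libraries and 8.90, 9.76, 11.1 and 12.6 CPM in the 4 hpf libraries (1.67 ± 0.11). The Nodal antagonist gene lft2 had 3 reads in all at 2 hpf and stood at 16.8, 14.8, 14.4 and 20 CPM in the 4 hpf libraries, and lft1 rose by 2.1. dharma, a homeobox gene of the dorsal organizer that responds to maternal β-catenin, had no read at 2 hpf. By 4 hpf it had reached 2.12, 2.71, 3.52 and 3.05 CPM, at least 87.1-fold higher. The notochord homeobox gene noto went from 1 read in all to 19.4, 24.5, 15.5 and 22.6 CPM. The BMP antagonist gene chd went from 0.106, 0.148, 0.255 and 0.234 CPM to 3.92, 3.38, 5.96 and 7.33 CPM (2.33 ± 0.15), and in it TUT7MO and TUT47MO were the higher libraries at 4 hpf (2.16 with the other pairs alone).

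In the BMP and ventral list, which also holds the BMP antagonist gene chd of the organizer list, 12 of 20 tested genes rose (60%) and 2 fell (10%). The shares of all genes tested were 18.2% and 21.2%. The ligand gene bmp2b stood at 0.319, 0.297, 0.204 and 0.781 CPM in the 2 hpf libraries and 27.8, 23.8, 26.2 and 26.9 CPM in the 4 hpf libraries (4.29 ± 0.11). Among BMP targets and effectors, the main id1 entry rose from 12.3, 12.9, 11.2 and 10.2 CPM to 69.3, 64.8, 72.4 and 69.0 CPM (2.47 ± 0.08) and smad5 by 0.65. bmp7a rose by 1.95. bmp4 had mean levels of 1.18 CPM and then 0.942 CPM and did not pass the test. The ventral repressor genes vent and ved rose by 2.77 and 2.32. An evx1 entry and id2a fell by 0.64 and 0.54, and a second evx1 entry did not pass. The evx1 call was lost with the ConMO and TUT4MO pairs alone (−0.36).

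FGF and Wnt genes were mixed. In the FGF list 7 of 13 tested rose (53.8%, against 18.2% of all genes tested) and 1, cnpy1, fell (−0.24). The feedback phosphatase gene dusp6 went from 0.106, 0.0371, 0.204 and 0.156 CPM to 40.7, 34.4, 39.7 and 26.6 CPM (5.00 ± 0.12). The receptor gene fgfr4 went from 0.0530, 0.0371, 0.153 and 0.0389 CPM to 37.7, 17.1, 33.9 and 20.5 CPM (4.65 ± 0.17), with ConMO and TUT7MO high, as in vgll4l. The ligand gene fgf3 was at most 2.61 CPM at 4 hpf, and fgf8a, with means of 1.17 CPM and then 1.94 CPM, did not pass. Under the deposited scaling 4 FGF genes rose and 2 fell.

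In the Wnt list 11 of 19 tested rose (57.9%, against 18.2% of all genes tested) and 2 fell (10.5%, against 21.2%). The ligand gene wnt11, which acts in gastrulation movements, stood at 1.65, 1.45, 1.99 and 1.76 CPM in the 2 hpf libraries and 37.7, 42.8, 38.1 and 46.5 CPM in the 4 hpf libraries (3.96 ± 0.10). The receptor gene fzd7a rose by 3.59 ± 0.09. The Wnt target gene sp5l and the antagonist gene dkk1b rose by 2.73 and 1.96, both with TUT7MO and TUT47MO as the higher libraries at 4 hpf; sp5l was at 2.4 and dkk1b at 1.69 with the other pairs alone. axin2, a feedback inhibitor that was loaded maternally, fell by 0.35, as did a wnt8a entry (by 0.33, a call lost with the other pairs alone), while another wnt8a entry did not pass. With library totals alone 5 Wnt genes rose and 3 fell.

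Most tested mesoderm genes rose. Of 16 tested mesoderm genes 12 rose (75%, against 18.2% of all genes tested) and 2 fell (12.5%, against 21.2%). The T-box gene tbx16 went from 1 read in all to 17.5, 22.7, 11.9 and 20.8 CPM, and the Brachyury gene ta from 0.235 to 8.24 CPM (2.82; 2.62 with the ConMO and TUT4MO pairs alone). The Snail gene snai2 rose from 11.1, 8.31, 10.7 and 10.2 CPM to 54.2, 58.8, 63.2 and 67.4 CPM (2.49 ± 0.08), and the retinoic acid-degrading enzyme gene cyp26a1 from 15.3 to 62.3 CPM (1.93). The receptor ligand gene apela rose by 3.69 ± 0.13, beside its receptor aplnrb above. The segmentation genes mespaa and mespba, at 1.16 and 2.43 CPM at 2 hpf, fell by 0.44 and 0.59, where the mespaa call was lost with the ConMO and TUT4MO pairs alone, and her1, tbx6 and msgn1 stayed under 0.7 CPM.

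In the endoderm list 6 of 7 tested genes rose (85.7%, against 18.2% of all genes tested). The chemokine receptor gene cxcr4a stood at 1.54, 1.26, 1.99 and 2.69 CPM in the 2 hpf libraries and 49.8, 49.8, 38.8 and 37.8 CPM in the 4 hpf libraries (3.98 ± 0.17; 4.48 with the ConMO and TUT4MO pairs alone). The scavenger receptor gene ackr3b had no read at 2 hpf and stood at 23.7, 23.3, 23.8 and 21.9 CPM in the 4 hpf libraries, at least 705-fold higher. foxa3 was at 2.86, 5.98, 5.14 and 12.3 CPM in the 4 hpf libraries, and sox32, the endoderm master regulator gene, at 0.623, 1.80, 1.02 and 2.1 CPM. In both the ConMO library was the lowest and TUT47MO the highest. sox17, which acts after sox32, and gata5 stayed under 1 CPM and were not tested.

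Ectoderm and outer layer genes held many of the large rises, with 19 of 24 tested genes higher (79.2%, against 18.2% of all genes tested) and 1 lower. The SoxB1 gene sox3 stood at 0.904, 0.928, 1.02 and 1.33 CPM in the 2 hpf libraries and 72.3, 95.6, 36.2 and 49.2 CPM in the 4 hpf libraries (4.89 ± 0.21). TUT7MO and TUT47MO were the low libraries at 4 hpf, and the ConMO and TUT4MO pairs alone gave 5.55 for sox3. Its relative sox19a was at 38.3, 42.2, 35.8 and 37.7 CPM in the 4 hpf libraries, where the 4 libraries lay closer together (5.00 ± 0.10). The keratin gene krt18 was at 17.5, 19.6, 16.2 and 36.9 CPM in the 4 hpf libraries, with TUT47MO far above the others (4.28 ± 0.17), and krt4 rose by 2.2. The adhesion gene epcam, maternal and abundant, fell from 893 ± 142 to 593 ± 74.2 CPM (−0.59), while the cadherin gene cdh1 rose by 0.27 (0.41 with the ConMO and TUT4MO pairs alone).

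Yolk syncytial layer genes were mostly not yet read. Of 20 entries 6 were tested and 4 rose (66.7%, against 18.2% of all genes tested), namely mxtx1, mxtx2, apoeb and apoc1. hnf4a, apoa1b, apoa2, rbp4 and afp4 stayed under 0.4 CPM at 4 hpf. Markers of differentiated cells were low or did not pass for the most part. All 10 blood entries together held 0.528 to 1.1 CPM at 2 hpf and 0.564 to 0.809 CPM at 4 hpf, and none was tested. Of 11 muscle entries 3 were tested and none passed, and the list held 5.46 to 7.17 CPM at 2 hpf and 5.96 to 6.69 CPM at 4 hpf. Of 10 neural entries 4 were tested and 2 rose (50%, against 18.2% of all genes tested). These were tubb5, a tubulin gene also used outside neurons (0.50), and neurog1 (0.33). The neurog1 call was lost in 10 of the other settings, among them the deposited scaling, library totals, DESeq2 and the ConMO and TUT4MO pairs alone. Of 13 entries of adult ovary and liver 1, hsd3b2, was tested, and it did not pass (0.13).

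The cell cycle list split evenly, with 15 of 45 tested genes higher (33.3%) and 14 lower (31.1%). Of all genes tested 18.2% were higher and 21.2% lower. With the deposited scaling the split was 9 and 18. The G1 cyclin gene ccnd1, low before the onset, stood at 1.22, 1.34, 1.02 and 0.820 CPM in the 2 hpf libraries and 52.7, 55.3, 43.0 and 55.1 CPM in the 4 hpf libraries (4.64 ± 0.10). The cyclin-dependent kinase inhibitor genes cdkn1a and cdkn1ca rose by 2.09 and 1.29, the mitosis-restraining kinase gene wee1 by 0.85, and the helicase subunit genes mcm6 and mcm3, both under 1 CPM at 2 hpf, by 1.92 and 1.74.

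Several maternal mRNAs of mitosis were lower at 4 hpf. aurkb, the kinase of the chromosomal passenger complex, stood at 203, 197, 226 and 236 CPM in the 2 hpf libraries and 93.1, 89.8, 120.3 and 121 CPM in the 4 hpf libraries (−1.03 ± 0.05; −1.11 with the ConMO and TUT4MO pairs alone). cdk1 went from 96.8 ± 3.46 to 52.0 ± 6.74 CPM (−0.89 ± 0.07) and the spindle checkpoint gene mad2l1 from 156 ± 4.23 to 85.1 ± 9.77 CPM (−0.87 ± 0.06; −0.995 with those pairs alone). plk1 and aurka fell by 0.45 and 0.47, and the checkpoint kinase genes chek1 and chek2 by 0.43 and 0.46. The cyclin genes ccnb1 and ccnb2, at 0.11 and 0.11, did not pass.

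Histone entries rose in 43 of 52 cases (82.7%, against 18.2% of all genes tested) and none fell, with a median of 0.52. Their summed levels were 9531 to 9838 CPM at 2 hpf and 12360 to 14790 CPM at 4 hpf. The deposited scaling gave 43 and 2, but with library totals alone none rose and 1 fell. Histone genes are near-identical copies, so the level of a single entry is uncertain. HIST1H4J, for example, stood at 128, 133, 135 and 145 CPM and then at 192, 193, 210.0 and 238 CPM. Ribosomal protein genes went the other way in 30 of 84 cases (35.7%, against 21.2% of all genes tested). Of the 84, 5 were higher (5.95%, against 18.2%), and the median was −0.07. rplp2 fell by 0.73 and rpl19 by 0.47. Here 51 fell and none rose with the deposited scaling, and 18 fell and none rose with the ConMO and TUT4MO pairs alone. The 8 of 13 mitochondrial mRNAs that passed (61.5%) all rose, against 18.2% of all genes tested. However, 2 rose with the deposited scaling and none with library totals. AC024175.17, 1 of the clone entries, rose by 1.14 (0.68 with the ConMO and TUT4MO pairs alone), and AC024175.4, at 1.65 ± 0.67, did not pass (limma adjusted p = 0.0799). The first call was lost with DESeq2, with no filter and without the TUT47MO pair. mt-atp8 was at 27.3, 21.5, 58.1 and 45.0 CPM in the 4 hpf libraries and was high in the same libraries as the AC024175 share, and its rise did not pass with the ConMO and TUT4MO pairs alone (0.28).

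**Figure D2:**
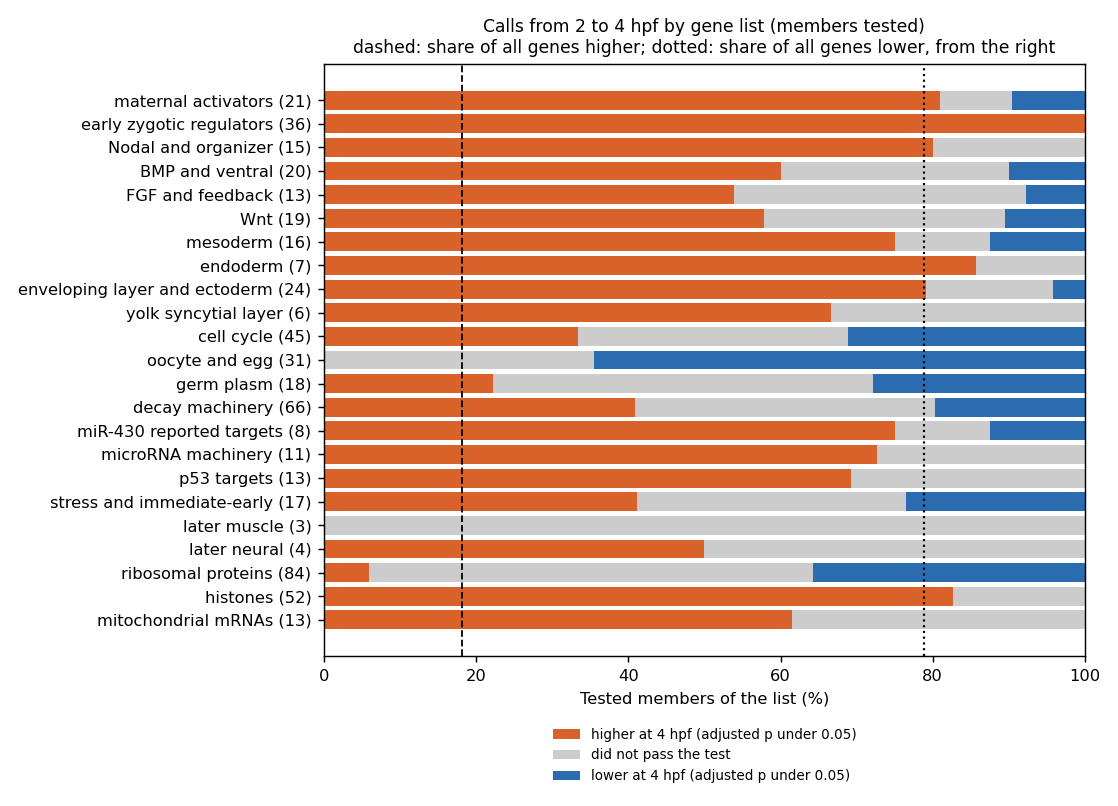
Share (%) of the tested members of each gene list that were higher at 4 hpf, lower at 4 hpf, or did not pass the test, with the number tested in brackets; vertical lines mark the shares of all tested genes that rose (18.2%) and fell (21.2%). The early zygotic list is higher in 36 of 36, a count that also describes the filter on reads. The oocyte and egg list is the only list drawn with over 50% of its members lower, at 20 of 31.

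Maternal mRNAs had begun to fall by 4 hpf. In the oocyte and egg list 20 of 31 tested genes fell (64.5%, against 21.2% of all genes tested) and none rose, and the median was −0.33. With median-of-ratios scaling 2 of them rose and 20 fell, and with the deposited scaling 22 fell. org, a gene named for its expression in oogenesis, stood at 367, 364, 355 and 374 CPM in the 2 hpf libraries and 101, 90.3, 132 and 135 CPM in the 4 hpf libraries (−1.68 ± 0.09, limma adjusted p = 1.15e-06). Its 4 hpf levels were higher in TUT7MO and TUT47MO than in ConMO and TUT4MO, and the latter pairs alone gave −1.92.

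The zygote arrest gene zar1l stood at 370.5, 398, 383 and 418 CPM and then at 152, 193, 204 and 248 CPM (−0.99 ± 0.08). mos, the kinase that holds the egg in meiosis, fell from 98.4 ± 3.40 to 51.7 ± 16.0 CPM (−0.96), and the oocyte histone mRNA-binding gene slbp2 from 346 ± 8.03 to 191 ± 24.9 CPM (−0.86). btg4, a deadenylation adaptor of oocytes, went from 522, 574, 527 and 569 CPM to 236, 339, 339.8 and 381 CPM (−0.78 ± 0.09). In zar1l, slbp2 and btg4 the ConMO library was the lowest at 4 hpf. The egg coat genes zp3b and zp2.1 fell by 0.75 and 0.33, and the oocyte growth factor gene bmp15 by 0.47. Others on the list had not moved past the test, among them the RNA-binding protein gene dazl (−0.08), gdf9 (0.001), the linker histone gene h1m (0.06) and zar1 (0.09).

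Of 18 germ plasm genes 5 fell (27.8%) and 4 rose (22.2%), with a median of −0.04; of all genes tested 21.2% fell and 18.2% rose, so these shares are near the background. buc, the organizer of the Balbiani body and germ plasm, fell from 833 ± 40.8 to 633 ± 30.8 CPM (−0.40), and nanos3 from 56.1 ± 8.19 to 43.8 ± 4.55 CPM (−0.35). tdrd7a and celf1 rose by 0.29 and 0.23, and both calls were lost with the ConMO and TUT4MO pairs alone. ddx4 (vasa, 0.04) and dnd1 (−0.001) did not pass, though ddx4 rose by 0.35 with those pairs alone. None rose and 9 fell with the deposited scaling.

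Components of the decay machinery were maternal and moved little. Of 66 tested 27 rose (40.9%) and 13 fell (19.7%), around a median of 0.08. Of all genes tested 18.2% rose and 21.2% fell, so the share that fell is near the background. With the deposited scaling the counts were 12 and 23, and with library totals 1 and 21, so that the balance turned over. The adaptor gene btg1 rose from 6.86 ± 0.828 to 15.6 ± 0.866 CPM (1.08), cnot1, the scaffold of the CCR4-NOT deadenylase, by 0.61, and the reader gene ythdf2 by 0.48 (0.31 with the ConMO and TUT4MO pairs alone). parn, a deadenylase, fell by 0.49 and the exosome subunit gene exosc4 by 0.59. In the microRNA list 8 of 11 rose (72.7%), dicer1 by 0.56 and ago4 by 0.51, and 2 rose and 1 fell with the deposited scaling. Without the TUT47MO pair 5 of them rose. The 55 entries of dre-mir-430 hairpins summed to 2.03 estimated reads over the 8 libraries, so the table gives no level of miR-430. Of 8 mRNAs reported as its targets 6 rose, 5 of them from a mean under 3 CPM, and nanos3 fell.

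p53 and stress genes were looked at because injected embryos can show them. Of 13 tested p53 genes 9 rose (69.2%, against 18.2% of all genes tested) and none fell. gadd45ba rose from 3 reads in all to 12.6, 14.2, 10.5 and 13.0 CPM, cdkn1a was at 4.11, 4.12, 5.14 and 9.29 CPM in the 4 hpf libraries and bbc3 at 6.16, 4.63, 4.02 and 10.7 CPM. In cdkn1a and bbc3 the TUT47MO library was the highest, and no uninjected library stands beside them. In the stress list 7 of 17 rose (41.2%) and 4 fell (23.5%), where the share that fell is near the 21.2% of all genes tested. The immediate-early gene ier5 went from 1.38, 1.56, 1.02 and 0.938 CPM to 23.2, 27.2, 31.6 and 49.1 CPM (3.88 ± 0.20) and the small heat shock gene hspb1 from 4.94, 4.93, 6.38 and 5.66 CPM to 24.7, 25.3, 29.3 and 36.7 CPM (2.2 ± 0.09). The chaperone gene hspa5 fell by 0.34.

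The targets of the morpholinos were measured in every library. zcchc11, the gene for TUT4, stood at 113, 108, 116 and 109 CPM in the 2 hpf libraries and 126, 126, 119 and 126 CPM in the 4 hpf libraries (0.15 ± 0.05, limma adjusted p = 0.0305). ZCCHC6, the gene for TUT7, stood at 184, 187, 181 and 183 CPM and 202, 190.0, 211 and 208 CPM (0.14 ± 0.05, limma adjusted p = 0.0473). At 2 hpf each was lowest in the libraries that received its own morpholino, by a few CPM; at 4 hpf zcchc11 was lowest in TUT7MO and ZCCHC6 in TUT4MO. Either call was lost when some single pair was left out, zcchc11 without the TUT4MO or TUT47MO pair and ZCCHC6 without the ConMO, TUT7MO or TUT47MO pair. A translation block need not change the mRNA, so this is no check of the knockdown. The ZCCHC6 call was also lost with the ConMO and TUT4MO pairs alone. Under the scaling as deposited the changes were 0.005 for zcchc11 and −0.013 for ZCCHC6.

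The 11 largest falls under the same limits on name and level were smaller than the largest rises. gbgt1l1, a glycosyltransferase-like gene, stood at 39.1, 41.3, 46.0 and 49.0 CPM in the 2 hpf libraries and 6.16, 13.2, 11.6 and 15.4 CPM in the 4 hpf libraries (−1.89 ± 0.13, limma adjusted p = 6.85e-06). atg12, a conjugation factor of autophagy, went from 17.1, 18.6, 18.8 and 18.9 CPM to 2.55, 5.70, 4.94 and 7.48 CPM (−1.72 ± 0.15). In both the ConMO library was the lowest at 4 hpf and TUT47MO the highest, and no 4 hpf library reached the 2 hpf range.

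The pseudouridine synthase gene trub2 stood at 53.5, 54.9, 53.7 and 57.3 CPM and then at 13.8, 14.2, 19.8 and 20.1 CPM (−1.66 ± 0.09). arl6ip1, which shapes the endoplasmic reticulum, went from 142, 146, 152 and 156 CPM to 53.2, 47.0, 54.1 and 44.4 CPM (−1.57 ± 0.07). kpna2, an importin of nuclear transport, went from 473, 492, 499 and 524 CPM to 168, 168, 209 and 209 CPM (−1.40 ± 0.06). At 4 hpf trub2 and kpna2 were higher in TUT7MO and TUT47MO, which arl6ip1 was not; the ConMO and TUT4MO pairs alone gave −1.88 for trub2 and −1.51 for kpna2. lamtor3, a lysosomal signalling scaffold, fell by 1.57, the iron-sulfur cluster factor gene lyrm4 by 1.48, lyrm9 by 1.40, nat9 by 1.48 and the γ-tubulin complex gene MZT1 by 1.47.

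**Figure D3:**
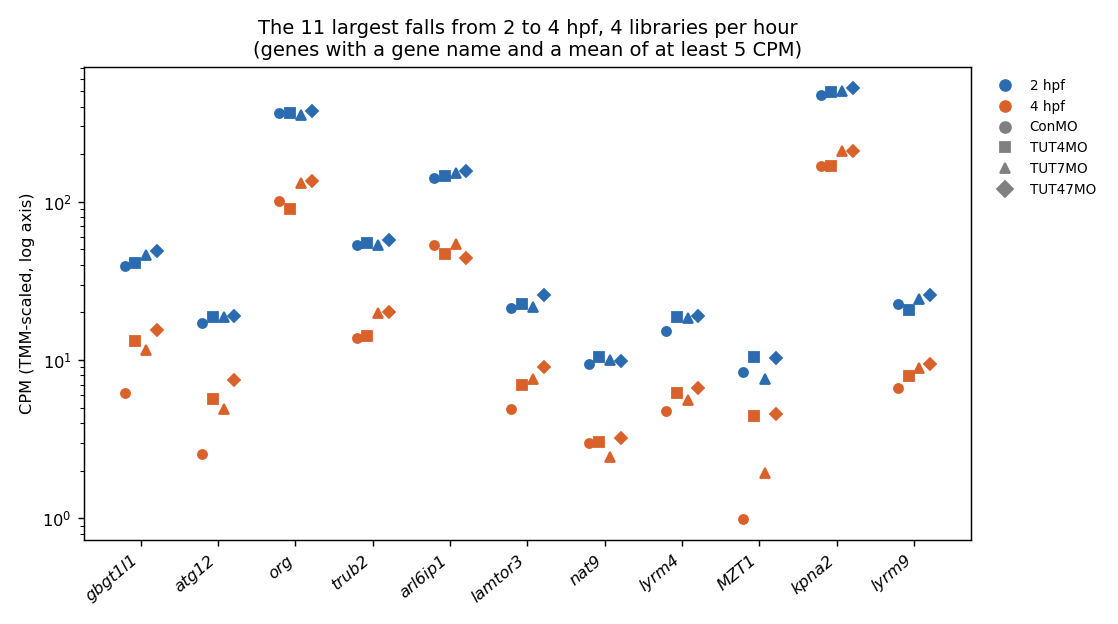
CPM (log axis) of the 11 genes with the largest falls among those with a gene name and a mean of at least 5 CPM, in each of the 4 libraries at 2 hpf (blue) and at 4 hpf (orange), with 1 symbol per morpholino. No gene has overlapping hours, and MZT1 spans 0.997 to 4.57 CPM at 4 hpf.

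Gene classes were taken from other libraries, so the values of the 8 libraries did not decide which genes belong to a class. The classes were still chosen with earlier results of these data known. Zygotic genes were those under 1 CPM at 3 hpf and at a mean of 5 CPM or more at 5 or 6 hpf in the ConMO libraries of sets rs1b and rs2. Genes already switched on to 1 CPM or more at 3 hpf are left out, so this class does not hold all zygotic transcripts. Maternal genes had at least 5 CPM at 3 hpf, and were cleared if they fell by at least 1 on the log2 scale or stable if they moved by at most 0.5. The 1027 zygotic genes had median log2 changes of 0.39, 0.36, 0.36 and 0.47 in the ConMO, TUT4MO, TUT7MO and TUT47MO pairs (mean 0.394 ± 0.0502, SD, n = 4). The 3286 cleared genes had −0.18, −0.16, −0.15 and −0.17 (−0.163 ± 0.0126), and the 2887 stable genes a mean of −0.007 ± 0.0232. The sign was the same in 4 of 4 pairs for the zygotic and the cleared class, which gives p = 0.13 in a two-sided exact sign-flip permutation test, the smallest it can give with 4 pairs, and p = 0.5 for the stable class.

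Only part of the later zygotic genes was read at 4 hpf. At least 1 CPM was reached by 56 of 1027 at 2 hpf and by 432 at 4 hpf, and at least 5 CPM by 159 at 4 hpf. Of the 518 with enough reads to be tested, 360 rose (69.5%) and 2 fell. Members low at 2 hpf were tested only if they had enough reads at 4 hpf, so this share also describes the filter. Of all tested genes under 1 CPM at 2 hpf, 30.4% rose. The zygotic median rests on the pseudocount, at 1.35 with 0.1 and 0.10 with 5, since most members were near 0. Of the cleared genes 1496 of 3286 fell (45.5%) and 235 rose (7.15%). Of the stable genes 639 fell (22.1%) and 506 rose (17.5%), close to the shares of all genes.

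As a share of reads outside AC024175, the zygotic class took 0.0356 to 0.0371% at 2 hpf, 0.413 to 0.479% at 4 hpf and 1.45 to 5.30% at 6 hpf. The cleared class took 29.9 to 30.4%, 25.1 to 26.1% and 5.09 to 17.1% at the same hours. At 2 and 4 hpf the 4 morpholinos lay within these narrow ranges, while at 6 hpf they were spread. Within an hour the libraries differed little: among 9394 genes at 10 CPM or more, the median SD over 4 libraries was 0.0717 at 2 hpf and 0.0950 at 4 hpf on the log2 scale. The highest and lowest library differed by more than 1 in 49 of these genes at 2 hpf (0.522%) and 98 at 4 hpf (1.04%).

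**Figure D4:**
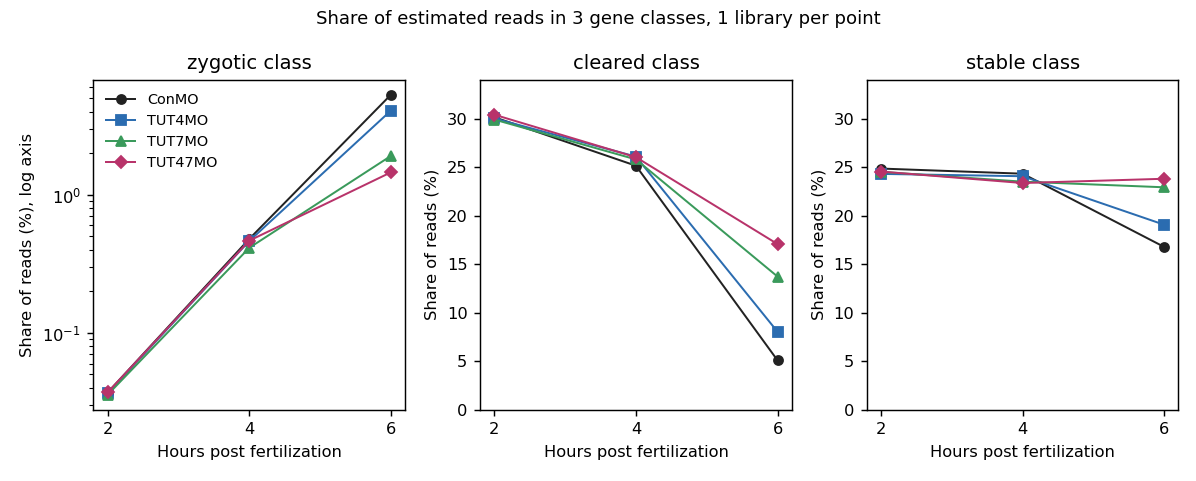
Share of estimated reads outside the AC024175 entries (%) in the zygotic (log axis), cleared and stable gene classes at 2, 4 and 6 hpf, with 1 line per morpholino and 1 library per point. The 4 lines run together up to 4 hpf, where the zygotic class stands at 0.413 to 0.479%, and part by 6 hpf.

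Most genes that had moved by 4 hpf moved the same way in the other sets, in ConMO libraries at 3 and then 5 or 6 hpf. That interval starts before 4 hpf, so it overlaps the step from 2 to 4 hpf. Later higher or lower here means at 5 or 6 hpf against 3 hpf, not a move after 4 hpf. znf1109 and her5 were later higher in this sense, yet lower at 6 than at 4 hpf in ConMO of set rs1a. Of the 2874 risers 1997 were later higher in both sets (69.5%, against 37.9% of all tested genes), 635 were lower in both and 242 were mixed. Of the 518 that rose by at least 1, 513 were later higher in both (99.0%) and 1 was lower in both. However, 377 of these 518 were under 1 CPM at 2 hpf, where a gene has little room to fall later. The 37.9% is over tested genes of all levels, so it is no matched background for the 99.0%. Of the 3344 fallers 2485 were later lower in both (74.3%, against 49.9% of all tested genes) and 582 were higher in both. Of the 116 that fell by at least 1, 83 were later lower in both and 20 were higher in both.

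The 20 fallers that were higher at 5 or 6 hpf than at 3 hpf include nat9 and MZT1. nat9 stood at 9.46, 10.4, 10.01 and 9.80 CPM in the 2 hpf libraries and 2.99, 3.05, 2.44 and 3.19 CPM in the 4 hpf libraries (−1.48 ± 0.10). On the log2 scale it moved by 2.29 from 3 to 6 hpf in rs1b and by 0.98 from 3 to 5 hpf in rs2. MZT1 moved by 1.73 and 0.59 in those sets. slbp, the histone mRNA-binding protein of dividing cells, fell by 0.62 to 4 hpf and moved by 1.36 and 0.93 in those sets, while its oocyte relative slbp2 moved by −3.77 and −2.60. In ConMO of set rs1a slbp was at 205, 126 and 379.6 CPM at 2, 4 and 6 hpf, when scaled over 12 libraries. In TUT47MO it was at 231, 165 and 83.0 CPM.

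The largest risers took different courses after 4 hpf. On the same scale ConMO held 1.05, 185 and 5150.0 CPM of akap12b at 2, 4 and 6 hpf and 0.421, 103 and 239.7 CPM of klf17. znf1109 was at 0.190, 90.6 and 23.5 CPM and her5 at 0.126, 75.2 and 18.4 CPM, both lower at 6 than at 4 hpf. In her5 the TUT7MO and TUT47MO libraries were higher at 6 hpf than at 4 hpf, at 78.7 and 103 CPM. The 6 hpf values are single libraries, and no test was made on them.

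**Figure D5:**
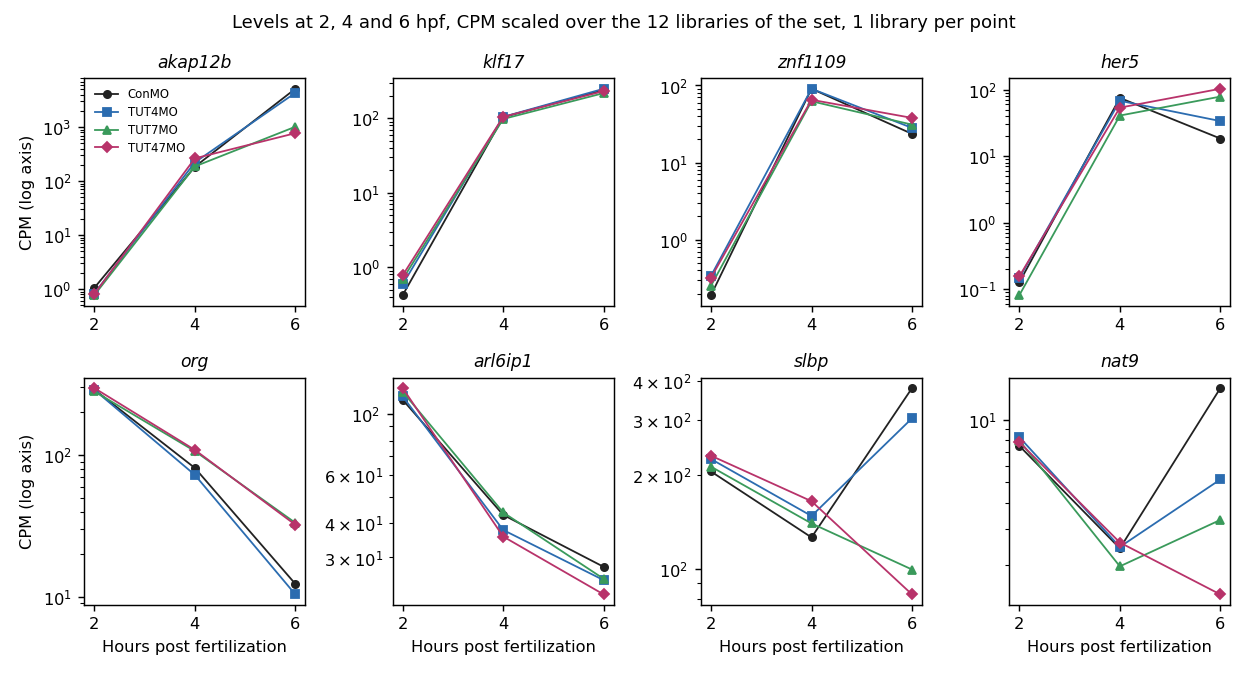
CPM (log axis, scaled over the 12 libraries of the set) of 8 genes at 2, 4 and 6 hpf, with 1 line per morpholino and 1 library per point. akap12b, klf17, znf1109 and her5 rise to 4 hpf; org and arl6ip1 fall at both steps; slbp and nat9 fall to 4 hpf, and at 6 hpf slbp is higher again in ConMO and TUT4MO and nat9 in ConMO, TUT4MO and TUT7MO.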

How the data were processed

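TRIzol-extracted total RNA received ERCC spike-in and was depleted of ribosomal RNA before stranded paired-end sequencing, per the labels' protocols. STAR 2.5.3a, RSEM and the genome GRCz10 are named in the submitters' processing notes, without settings. The deposited values of set rs1b are estimated (expected) counts. Those deposited for rs1a and rs2 are a signal, estimated counts times 1 factor per library of unstated origin. The spacing of low values gave each factor, which was divided out; 85.2 to 90.8% of values up to 20 in the 8 libraries were then whole within 0.02. Of 32660 entries, 555 (1.7%) carry no name and stayed out. ERCC values were not used here. Of the named IDs 26269 were in the reference name table, and no sequences or coordinates were used.

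Because the values are no plain counts, the test was limma 3.58.1 with a trend on log2(CPM + 1), with TMM scaling (edgeR 4.0.16), filterByExpr at a minimum count of 10, terms for time and morpholino, and Benjamini-Hochberg adjustment at 0.05 over 15764 genes (R 4.3.3), two-sided. It was tested on simulated data. The replicate block is the morpholino, shared by the libraries of a pair per the labels. Deviations from the hour's mean correlated at 0.058 to 0.194 within pairs, over genes.

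The rule for naming genes took the 12 highest and 12 lowest called changes with a mean of at least 5 CPM, 1 sign in 4 pairs and no clone name, and up to 6 members of each list by smallest p; some genes it took are not reported here. Other list members in the text were chosen after their values were seen. Members, lists and classes were chosen with earlier results of these data known. Lists overlap, and a symbol can stand on several entries; the highest is given. Alternatives were other scalings, filters and pseudocounts, edgeR, DESeq2 1.42.0, no replicate block, all 12 libraries of the set, pairs left out, and a class minimum of 20 CPM.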

Additional observations from a re-analysis of the deposited data

Results flagged for a closer look

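Of 286 groups of 4 libraries checked, 19 had a highest or lowest library far from the other 3; chance flags about 1 in 20. At 4 hpf these were irx7, with 80.84 CPM in TUT7MO below 97.9 to 101.4 CPM in the others, aplnrb, with 77.09 CPM in TUT47MO, and krt18, with 36.87 CPM in TUT47MO. buc was low in ConMO at 587.4 CPM, ago3b high in TUT7MO at 141.5 CPM and zcchc11 low in TUT7MO at 119.3 CPM.

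At 2 hpf atg12 (17.06 CPM) and lyrm4 (15.36 CPM) were low in ConMO, zp3b was high in TUT47MO (195.6 CPM), hsd3b2 (17.59 CPM) and apoba (0.7423 CPM) were high in TUT4MO, and fgfr4 was high in TUT7MO (0.1532 CPM). The others at 2 hpf are the only library with reads: noto, tbx16 and foxa3 in TUT7MO (0.05107 CPM each), admp in ConMO (0.05302 CPM), vent in TUT4MO (0.07423 CPM), and bmper and fgf3 in TUT47MO (0.03887 CPM each).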

How the results depend on the processing

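The risers and fallers came to 2229 to 2782 and 2664 to 2842 with 1 pair left out in turn, and to 2765 and 3257 with no replicate block. They moved past 1.5 times the counts reported in 3 settings: 1444 and 5783 with the deposited scaling, 647 and 5370 with library totals alone, and 474 and 332 with all 12 libraries of the set in the fit. The cause was not tested; by construction the third shares its spread with the 6 hpf libraries, and 69 of 143 named genes no longer passed there. DESeq2 gave 2449 and 2288, edgeR 2877 and 3320, and median-of-ratios scaling 3192 and 3053, where 51.1% of calls were rises; this was 51.7% with DESeq2.

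The zygotic class kept its sign in every setting run, from 0.10 with a pseudocount of 5 to 1.35 with 0.1, and at 0.83 with a class minimum of 20 CPM. The cleared class ran from −0.14 with 12 libraries to −0.55 with library totals. With 1 pair left out the zygotic, cleared and stable medians ran from 0.383 to 0.419, from −0.168 to −0.146 and from −0.008 to −0.001. The stable class, which is near 0, turned to 0.015 with median-of-ratios scaling and with 12 libraries, to 0.009 without mitochondrially encoded genes, to 0.018 with the ConMO and TUT4MO pairs alone, to 0.011 with a class minimum of 20 CPM, and stood at 0 with a minimum count of 50.

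Among named genes, ZCCHC6 turned to −0.01 with the deposited scaling (−0.013). With library totals alone 15 turned over: il17rd to −0.059, etv5a to −0.09, celf1 to −0.173, tdrd7a to −0.113, tarbp2 to −0.165, ago2 to −0.142, ago3b to −0.223, ago1 to −0.185, zcchc11 to −0.25, ZCCHC6 to −0.27, mt-cyb to −0.091, mt-co2 to −0.103, mt-co3 to −0.101, mt-atp6 to −0.011 and mt-co1 to −0.034. Depth limits genes under 1 CPM at 2 hpf: 3 reads over that hour's 4 libraries are 0.033 CPM, and intervals and floors cover counting error only.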

Other observations

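Further genes that rose at least 4-fold, outside the lists described above, were chosen after their values were seen. Among genes of the Notch pathway, in which ligands on one cell activate receptors on its neighbour, the glycosyltransferase gene lfng, which modifies the Notch receptor, rose from 4.53 ± 1.18 to 76.5 ± 11.1 CPM (SD, n = 4), a log2 change of 3.82 ± 0.08 (SE). The ligand genes dlc and dld rose by 2.33 ± 0.15 and 2.31 ± 0.17 and the Hairy-related repressor gene her6 by 2.26 ± 0.12. dld was at 4.36, 3.67, 8.10 and 8.86 CPM in ConMO, TUT4MO, TUT7MO and TUT47MO at 4 hpf, so TUT7MO and TUT47MO were the high libraries (2.00 with the ConMO and TUT4MO pairs alone).

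The Wnt receptor gene fzd8a was without reads in 3 of the 4 libraries at 2 hpf and at 19.1, 18.8, 20.5 and 24.3 CPM in the 4 hpf libraries. The receptor gene fzd4 rose by 3.47 ± 0.16, the planar polarity gene prickle1b by 4.83 ± 0.15 and dact1, which encodes a Dishevelled-binding protein, by 2.87 ± 0.11. cxcr4b, a chemokine receptor gene, rose from 7.20 ± 0.97 to 74.0 ± 5.53 CPM, and has2, which makes hyaluronan, from at most 0.039 to between 18.4 and 32.3 CPM. Among genes of noncoding RNAs, rn7sk, which restrains transcription elongation, was at 114, 123, 222 and 298 CPM at 4 hpf, and malat1 at 196, 188, 110 and 136 CPM. TUT7MO and TUT47MO were the high libraries for rn7sk and the low ones for malat1, and the other pairs alone gave log2 changes of 1.65 and 2.87. Of 382 entries named U1, a spliceosomal RNA, 17 were tested and all 17 rose. Of 15 named U2 5 were tested and all 5 rose, against 18.2% of all genes tested. Summed over all U1 entries, the 2 hpf libraries held 9.78 to 15.2 CPM, and those of 4 hpf 57.5, 90.8, 159 and 284 CPM, so TUT7MO and TUT47MO were again the high ones. The U2 entries held 4.04 to 9.65 CPM and then 82.8, 110.2, 226 and 314 CPM. Some U2 entries held identical values in every library, so the entries are not independent measurements and their counts overstate the number of separate rises. Reads from near-identical copies could be split among such entries, so the level of 1 entry is uncertain, and an entry low at 2 hpf was tested only if it had reads at 4 hpf.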
